A study of Homo sapiens with 24 samples.

Results

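The 10 genes studied here take a human cell into mitosis and guard its passage. They are the transcription factors MYBL2 and FOXM1, the entry kinases CDK1, PLK1 and AURKA, the centrosome kinase NEK2, the chromosomal passenger kinase AURKB, and the spindle checkpoint genes TTK, BUB1 and BUB1B. They were chosen by name, with earlier results of these data known, and were followed through 24 libraries. Each symbol was matched to its Ensembl identifier, and all 10 were found among the 12285 genes of the expression table.

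The cells were K562, an established suspension line from a human leukaemia that has kept erythroid features. A synchronous population was taken by size with centrifugal elutriation, grown in RPMI with 10% bovine calf serum and antibiotics, and sampled every 2 h from 0 h to 46 h. Total RNA of 1 culture sample per time point was sequenced, so each value comes from 1 library. Expression was given as FPKM, fragments scaled to the transcript's length and to the library's total, and 2 days of 12 time points each were taken as 2 cycles of 24 h.

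The libraries at 16 h and 18 h stood apart. The study calls such time points STRIPEs, since transcript levels across the whole transcriptome depart there from those of their neighbours. It holds that their origin is likely technical, not biological, though the step that causes them is unknown. It sees a milder case at 32 h by eye, which its detector did not flag. Summed FPKM was 566247 at 16 h and 591309 at 18 h, against 456791 to 520382 in the other 22 libraries. All 10 erythroid and K562 markers examined were in the table, and 7 of them were at their lowest at 18 h. Their summed level was 3158 FPKM at 16 h and 2849 FPKM at 18 h, against 4147 to 8013 FPKM elsewhere, with the lowest of those at 32 h. Of 9 fibroblast and monocyte markers, 2 were in the table (COL1A2 and LYZ), with levels of at most 3.94 and 28.2 FPKM, while defining genes such as COL1A1 and CD14 were not in it. The main results are also given without 16 h and 18 h.

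Mitotic entry is driven by CDK1 bound to cyclin B, which phosphorylates many proteins once inhibitory phosphates are removed. PLK1 and Aurora A promote that switch and mature the centrosomes, Aurora B corrects faulty attachments of chromosomes to the spindle, and TTK, BUB1 and BUB1B hold back anaphase until every chromosome is attached. The genes for these proteins are transcribed late in the cycle by the MuvB complex, which binds first MYBL2 and then FOXM1 and reaches DNA through a short element called the CHR, often near CCAAT boxes bound by NF-Y.

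Promoter sequences were examined because members that share regulators were followed together. RefSeq windows of 300 bases around the annotated start (250 before, 50 after; GRCh38.p14) were available for 7 of the 10 genes, MYBL2, CDK1, PLK1, NEK2, AURKB, BUB1 and BUB1B, and CDK1 and AURKB had windows for more than 1 start. The letters TTTGAA or TTCGAA, read on both strands as the CHR, occurred in 4 of the 7 (CDK1, PLK1, BUB1 and BUB1B), against 19.5% of the 27305 genes with such a window. The sites are shown with 12 bases on each side of the match, 5′ to 3′ on the strand of the gene, and the match in capitals. At the second CDK1 start 3 matches lay within 1 window.

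CDK1, 161 bases before its upstream start, chr10:60778158-60778187, plus strand: gagtataataaaTTTGAActgtgccaatgc
CDK1, 69 bases before its downstream start, chr10:60778397-60778426, plus strand: ctgattggctgcTTTGAAagtctacgggct
CDK1, 13 bases before its downstream start, chr10:60778453-60778482, plus strand: tagcgcggtgagTTTGAAactgctcgcact
CDK1, at base 10 after its downstream start, on the other strand, chr10:60778475-60778504: ctcgcacttggcTTCAAAgctggctcttgg
PLK1, 29 bases before the start, chr16:23678848-23678877, plus strand: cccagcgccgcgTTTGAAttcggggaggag
BUB1B, 23 bases before the start, chr15:40161034-40161063, plus strand: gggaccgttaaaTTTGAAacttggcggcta
BUB1, at base 2 after the start, chr2:110678045-110678074, minus strand: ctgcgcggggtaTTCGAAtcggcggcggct

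MYBL2, NEK2 and AURKB had no match to the CHR letters in these windows, and MYBL2 none to the other motifs below either, which says only that these letters are not there. CCAAT, on either strand, occurred in 5 of the 7 genes (CDK1, PLK1, NEK2, AURKB and BUB1), against 39.7% of genes. The E2F letters TTT, a pair of bases that are each C or G, then CGC, occurred only in CDK1, against 3.99% of genes. Both of its windows, which overlap, contain the same site. The upstream stretches of NEK2, BUB1 and AURKB, up to the first annotated exon of each gene in GENCODE 29, are shown for the CCAAT boxes, which are in capitals (ATTGG where it lies on the other strand). NEK2 held 2, at 66 and 34 bases before the start, and BUB1 held another at 54 bases before the start, outside the stretch shown.

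NEK2, chr1:211675631-211675871, minus strand: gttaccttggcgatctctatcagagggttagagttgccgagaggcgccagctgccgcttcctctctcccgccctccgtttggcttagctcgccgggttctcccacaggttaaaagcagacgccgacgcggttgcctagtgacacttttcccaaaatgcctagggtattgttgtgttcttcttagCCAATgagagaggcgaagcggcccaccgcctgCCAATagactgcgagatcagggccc
BUB1, chr2:110678115-110678313, minus strand: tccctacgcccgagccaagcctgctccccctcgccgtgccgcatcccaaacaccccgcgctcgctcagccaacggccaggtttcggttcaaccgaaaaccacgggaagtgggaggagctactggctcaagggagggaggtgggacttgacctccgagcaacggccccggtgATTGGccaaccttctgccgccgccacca
AURKB, chr17:8210255-8210475, minus strand: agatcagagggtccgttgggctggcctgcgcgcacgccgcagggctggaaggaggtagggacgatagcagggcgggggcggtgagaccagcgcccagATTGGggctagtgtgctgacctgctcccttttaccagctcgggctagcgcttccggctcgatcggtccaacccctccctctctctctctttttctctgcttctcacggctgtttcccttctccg

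All 10 genes were expressed in all 24 libraries. Mean FPKM over the series, a level per transcript length, fell in the order CDK1 (178 ± 32.2, SD over n = 24 time points), MYBL2 (93.8 ± 8.75), PLK1 (74.7 ± 35.9), BUB1 (55.4 ± 12.5), AURKA (50.4 ± 14.5), BUB1B (41.5 ± 9.61), AURKB (39.5 ± 8.13), NEK2 (31.2 ± 8.23), FOXM1 (24.4 ± 3.69) and TTK (22.3 ± 5.69). Neighbours in this order, from MYBL2 down, differed by less than the larger SD of the pair, and only CDK1 stood further above the next gene than that. Of the 10 genes, 7 were highest at 18 h (CDK1, PLK1, AURKA, NEK2, TTK, BUB1 and BUB1B), whereas MYBL2 was highest at 6 h, FOXM1 at 32 h and AURKB at 34 h. The 18 h library is irregular, and the share of all genes that were highest there was not counted. Among other pathway genes, described below, 11 of 19 CDK1 control genes and 5 of 9 PLK1 and Aurora partners were highest there. So were 3 of 7 checkpoint partners, 4 of 11 MuvB and DREAM genes and 2 of 15 S phase genes. The lowest value fell at 0 h for MYBL2, FOXM1 and CDK1, at 2 h for AURKA and BUB1B, and at 4 h for PLK1, NEK2, AURKB, TTK and BUB1. In RNA from a whole culture, fewer cells near mitosis and less RNA per such cell cannot be told apart.

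**Figure D1:**
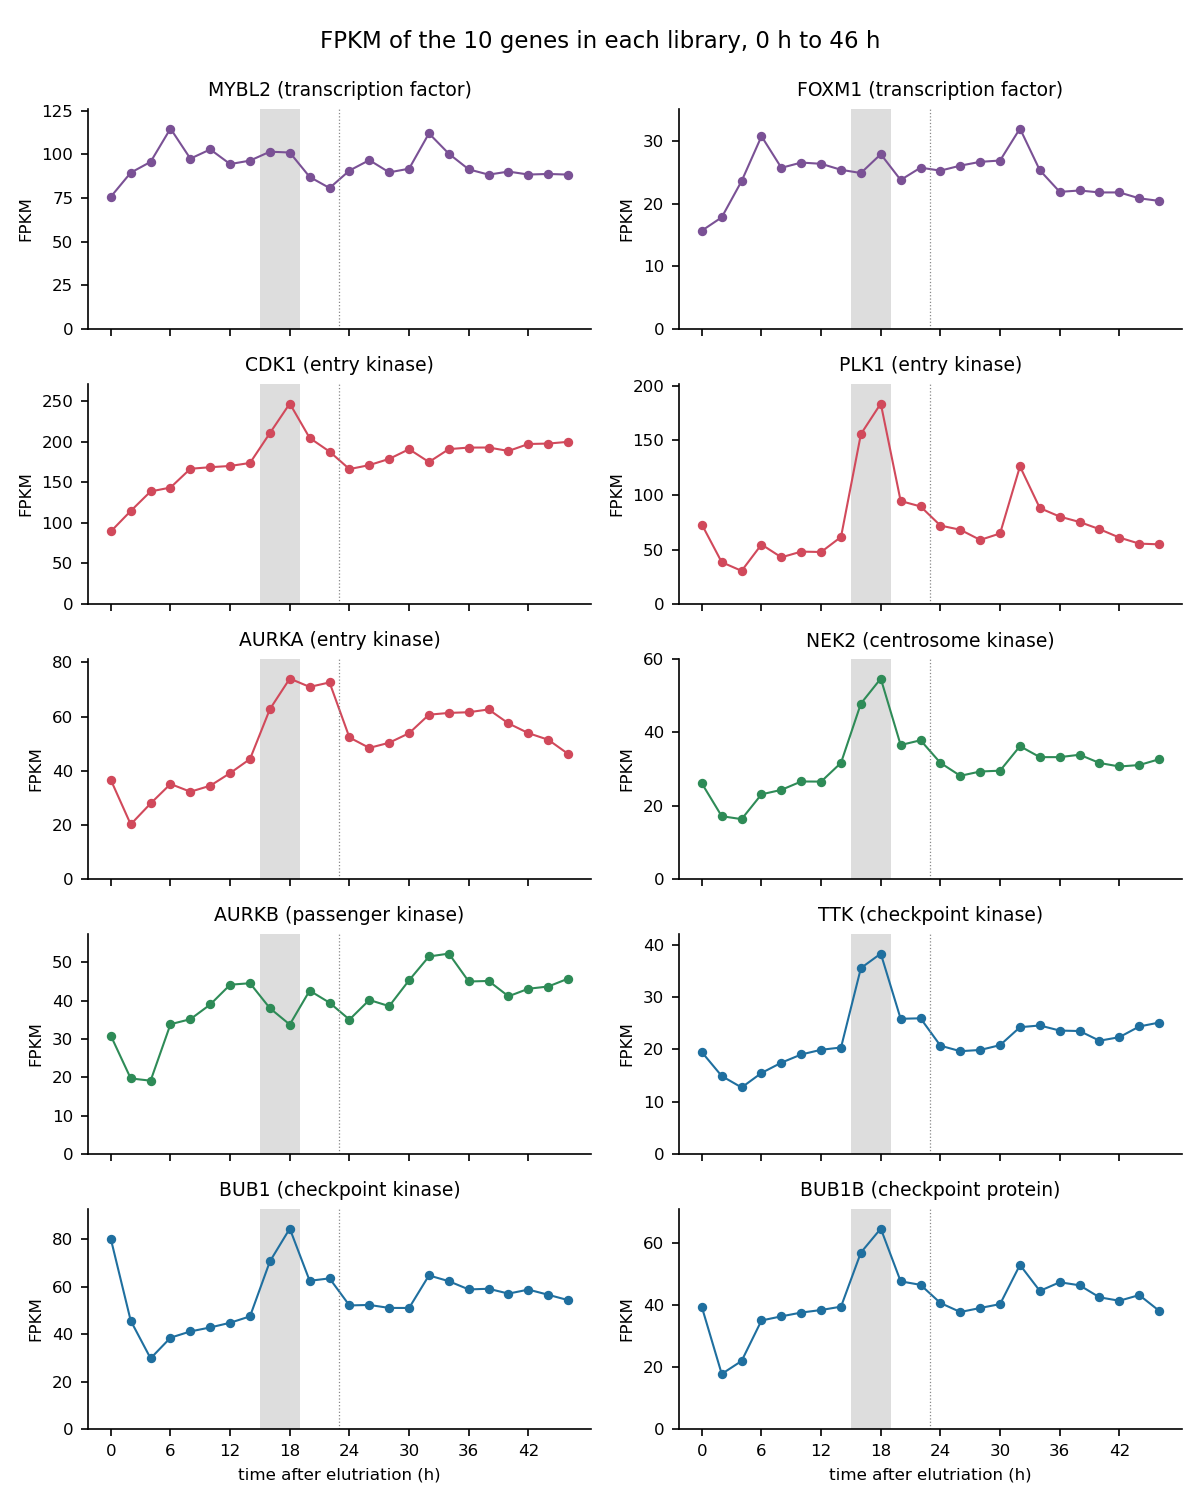
FPKM of each of the 10 genes (vertical axes, from 0) against time after elutriation in h (horizontal axes), 1 point per library, with the 16 h and 18 h libraries on a grey band and a dotted line between the days. The 7 genes with a maximum at 18 h are lower after it, AURKB dips there to 33.8 FPKM, and MYBL2 and FOXM1 have their highest points at 6 h and 32 h.

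The 2 transcription factors moved early and little. MYBL2, also called B-Myb, opens the late program with the MuvB complex. Its lowest FPKM was 75.7 at 0 h, its median 91.5 and its highest 114.7 at 6 h, a range of 1.52-fold. It then stayed between 94.4 and 102.8 FPKM from 8 h to 18 h, fell to 80.7 at 22 h, and reached a second high point of 111.9 at 32 h.

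FOXM1, which follows MYBL2 on the same promoters and is itself activated by mitotic kinases, had the lowest value, 15.7 FPKM, at 0 h, a median of 25.3 and the highest value, 32.0 FPKM, at 32 h. At 6 h, its first high point, it read 30.7 FPKM, 1.96 times the value at 0 h. From 36 h to 46 h it lay between 20.4 and 22.1 FPKM, under every value between 4 h and 34 h. FOXM1 overlaps ITFG2 and RHNO1 on the other strand of the chromosome, both also in the table, and since the strandedness of the libraries is not given in the sources used here, reads of these genes cannot be told apart with certainty.

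CDK1, the catalytic kinase of mitotic entry, was lowest at 0 h (89.5 FPKM), had a median of 183 and was highest at 18 h (247 FPKM). Up to 18 h each time point was higher than the one before. Its highest value outside 16 h and 18 h was 205 FPKM at 20 h, 2.29 times that at 0 h. On the second day it varied little, from its lowest, 166 FPKM, at 24 h to its highest at 46 h, a range of 1.20-fold.

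PLK1, the Polo-like kinase that activates CDK1 and builds the spindle poles, varied most of the 10. It read 72.9 FPKM at 0 h and 30.4 at 4 h, its lowest value, had a median of 66.4 over the series and was highest at 18 h with 183.8. The step was abrupt, from 61.5 FPKM at 14 h to 155.8 at 16 h, and at 20 h the value was 94.4. A single high library of 126.2 FPKM followed at 32 h, between 64.7 at 30 h and 88.0 at 34 h.

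AURKA, the Aurora kinase of the centrosomes and spindle poles, was lowest at 2 h (20.2 FPKM), had a median of 51.8 and was highest at 18 h (74.0). It stayed near that value after 18 h, where PLK1 did not. It read 70.9 FPKM at 20 h and 72.6 at 22 h and dropped to 52.3 at 24 h. On the second day its values went from 48.4 FPKM at 26 h up to 62.6 at 38 h and down to 46.2 at 46 h.

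NEK2, the kinase that lets the duplicated centrosomes part, was lowest at 4 h (16.3 FPKM), had a median of 31.4 and was highest at 18 h (54.6). Its highest value outside 16 h and 18 h was 37.8 FPKM at 22 h, 2.32 times the lowest. On the second day it lay between 28.1 FPKM at 26 h and 36.2 at 32 h.

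AURKB, the Aurora kinase of the chromosomal passenger complex, departed from the other kinases at 16 h and 18 h, the irregular libraries. It was lowest at 4 h (19.1 FPKM), had a median of 40.7 and was highest at 34 h (52.3). On the first day it climbed to 44.6 FPKM at 14 h, then read 38.1 at 16 h and 33.8 at 18 h, the hours at which the other 6 kinases and BUB1B were high. It was 42.6 FPKM at 20 h.

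TTK, also called MPS1, the kinase that starts the checkpoint signal at unattached kinetochores, was lowest at 4 h (12.7 FPKM), had a median of 21.2 and was highest at 18 h (38.3). The step from 20.4 FPKM at 14 h to 35.5 at 16 h was followed by 25.9 at 20 h and 26.0 at 22 h. On the second day its lowest value was 19.7 FPKM at 26 h and its highest 25.1 at 46 h.

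BUB1, the kinase that marks centromeres and gathers checkpoint proteins, began high, at 80.0 FPKM at 0 h, and had its lowest value, 29.8, at 4 h. Its median was 55.4 FPKM and its highest value 84.4 at 18 h. The highest library outside 16 h and 18 h was that at 0 h. BUB1B, which encodes BubR1, the part of the checkpoint complex that inhibits the anaphase-promoting complex, read 39.4 FPKM at 0 h and 17.8 at 2 h, its lowest value, had a median of 40.5 and reached 64.7 at 18 h. Its next highest value outside 16 h and 18 h was 53.0 FPKM at 32 h.

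**Figure D2:**
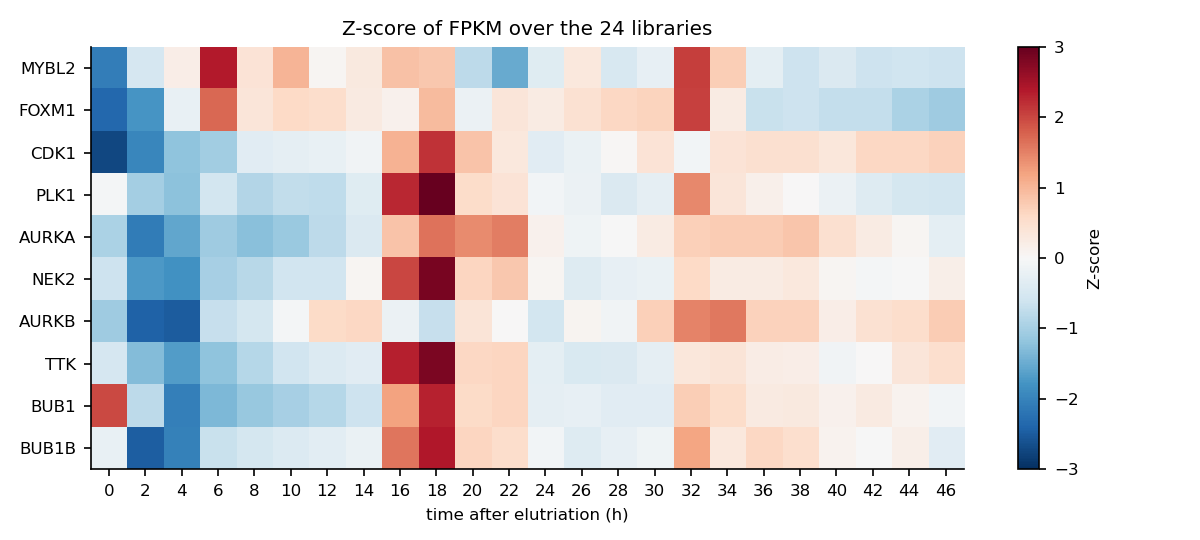
Z-score of FPKM (colour, each gene centred on its mean over the 24 libraries and divided by its SD, n = 24) for the 10 genes (rows) at each time after elutriation in h (columns). PLK1, NEK2, TTK and BUB1B share low values at 2 h and 4 h and high values at 16 h and 18 h, BUB1 is also high at 0 h, and MYBL2 and FOXM1 are highest at 6 h or 32 h.

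The first hours after elutriation were low for most of the genes. Between 0 h and the mean of 2 h and 4 h, on the log2(FPKM + 1) scale, 6 of the 10 were lower by at least 1.5-fold (BUB1, PLK1, BUB1B, AURKB, NEK2 and AURKA), against 3.99% of the 12253 genes that averaged 1 FPKM or more. The changes of these 6 ran from −1.07 for BUB1 to −0.58 for AURKA, which sits at the limit itself, and TTK was next with −0.47. MYBL2 (0.29), FOXM1 (0.38) and CDK1 (0.50) had higher values at 2 h and 4 h than at 0 h. The median change was −0.60 for the 10 genes and −0.02 for all genes. These hours, and those of the next comparison, were picked after the values had been seen, and with 1 library per time point they carry no test.

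From 2 h and 4 h to 20 h and 22 h, which leaves out 16 h and 18 h, 8 of the 10 genes were higher by at least 1.5-fold, against 3.77% of all genes. Folds in this comparison were taken on FPKM + 1. The size of the difference was 2.90-fold for AURKA (from 24.0 to 71.8 FPKM), 2.63-fold for PLK1 (34.4 to 92.0) and 2.30-fold for BUB1B (19.9 to 47.1). It was smallest among the 8 for CDK1, at 1.54-fold. FOXM1 (1.19-fold) and MYBL2 (0.907-fold) were the other pair. Between the same hours LYZ differed by 0.76 and COL1A2 by 0.36 (log2), and the part of the cells they mark was not tested. The median difference was 0.95 (log2) for the 10 genes and 0.03 for all genes. On the second day, from 26 h and 28 h to the mean of 34 h to 38 h, the same measure was smaller. Its median was 0.24 against −0.03 for all genes. Of the 10 genes, 9 were above 0, against 42.4% of all genes, though MYBL2 was barely so (0.003). FOXM1 (−0.18) was below 0.

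The partners of these kinases were described by the same measures. Of 19 CDK1 control genes in the table, 5 were at least 1.5-fold higher at 20 h and 22 h than at 2 h and 4 h. In that list, cyclin B1 (CCNB1), the cyclin that CDK1 needs for mitosis, was lowest at 4 h (65.0 FPKM) and highest at 22 h (237 FPKM), with a difference of 1.63 (log2). PKMYT1, a kinase that inhibits CDK1, had the largest fitted amplitude of the list, 0.40 ± 0.09 (SE), with a peak at 5.70 h, and CDK7, which activates CDK1, the smallest, 0.06 ± 0.05. Of 9 PLK1 and Aurora partners, 5 were higher by 1.5-fold or more, with the largest amplitude for TPX2, the activator of Aurora A (0.31 ± 0.09), and the smallest for BIRC5, survivin (0.04 ± 0.07).

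Of 7 checkpoint partners, 3 were higher by that measure, with the largest amplitude for NDC80, a kinetochore subunit that binds microtubules (0.28 ± 0.08), and the smallest for BUB3 (0.07 ± 0.04). Of 11 MuvB and DREAM genes, which include those of the MuvB complex that binds MYBL2 and FOXM1, 1 was higher, E2F5, a repressive E2F (1.19, log2). The largest amplitude there was that of LIN37 (0.30 ± 0.13), which read 0.271 FPKM at 16 h, and the smallest that of TFDP1 (0.05 ± 0.04). None of 15 S phase genes was higher, and their median was −0.36. By the tests described next, JTK called 4 of the 19 CDK1 control genes, none of the 9 PLK1 and Aurora partners, 1 of the 7 checkpoint partners and 2 of the 11 MuvB and DREAM genes, beside 11.9% of all genes. The change of the wave between days was called for 9, 1, 3 and 0 of them, beside 5.10% of all genes. When 16 h and 18 h were left out, JTK called 3, 0, 1 and 1 of the lists' genes (16.2% of all genes), and the change of the wave was called for 9, 0, 2 and 1 (4.15% of all genes). In the same fit without these libraries the amplitude was 0.23 ± 0.05 for PKMYT1, 0.03 ± 0.04 for CDK7, 0.18 ± 0.08 for TPX2, 0.11 ± 0.06 for BIRC5, 0.21 ± 0.08 for NDC80, 0.06 ± 0.03 for BUB3, 0.11 ± 0.06 for LIN37 and 0.05 ± 0.03 for TFDP1, of which BUB3 alone kept its place at the end of its list.

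**Figure D3:**
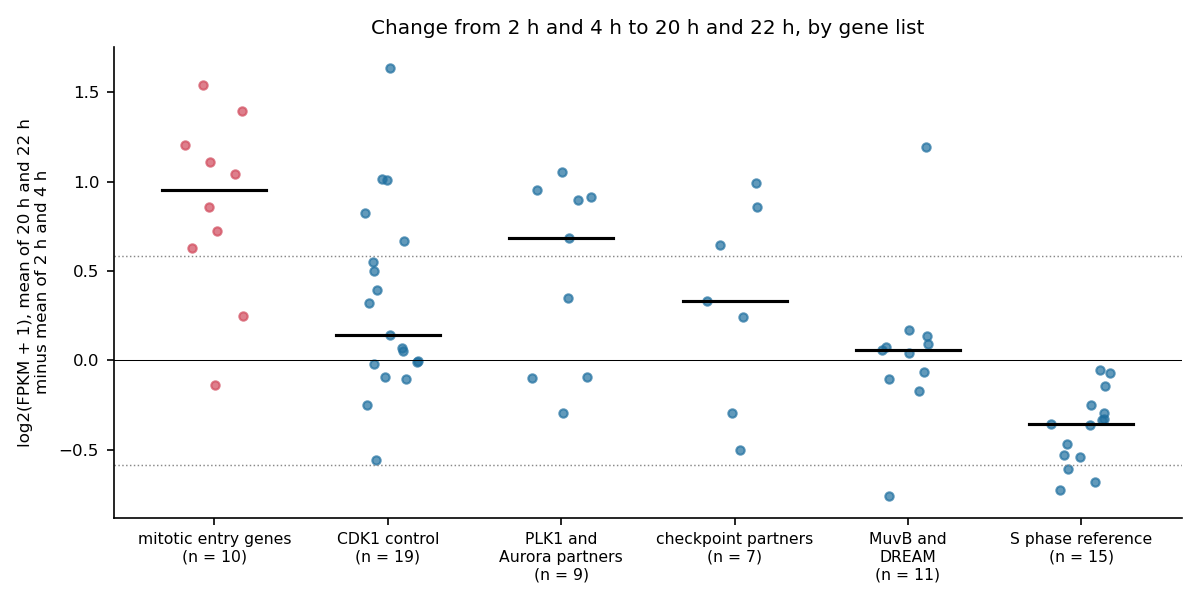
Difference in log2(FPKM + 1) between the mean of 20 h and 22 h and the mean of 2 h and 4 h (vertical axis) for each gene (point) of the mitotic entry genes and 5 lists of other pathway genes (horizontal axis), with the list medians as black lines and 1.5-fold as dotted lines. Medians run from 0.95 for the mitotic entry genes over 0.68 for the PLK1 and Aurora partners to −0.36 for the S phase genes, all of which lie below 0.

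Whether the genes cycle with a 24 h period was asked with the JTK statistic, which ranks a profile against cosines of 12 phases, with a p from 100000 permutations of the time points and Benjamini–Hochberg adjustment over all 12285 genes. Of the 10 genes, 3 passed at an adjusted p of 0.05, against 11.9% of all genes. They were MYBL2 (phase 10 h, adjusted permutation p = 0.028), TTK (phase 18 h, adjusted permutation p = 0.028) and CDK1 (phase 16 h, adjusted permutation p = 0.0369). The others had adjusted permutation p-values from 0.0509 for BUB1B to 0.224 for PLK1, so PLK1, the gene with the widest range, ranked last. Without 16 h and 18 h, MYBL2 and FOXM1 were called, beside 16.2% of all genes, and TTK and CDK1 were not.

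Each of these calls depended on single libraries. TTK was called in 19 of the 24 series that each lacked 1 library, and not without 4 h, 6 h, 8 h, 16 h or 18 h. MYBL2 was called in 16, and not without 0 h, 2 h, 8 h, 10 h, 20 h, 22 h, 44 h or 46 h. CDK1 was called in 15, and not without 4 h, 6 h, 8 h, 16 h, 18 h, 22 h, 36 h, 38 h or 42 h. Without 8 h none of the 10 genes was called, beside 8.00% of all genes. Without 32 h there were 6 (MYBL2, CDK1, NEK2, TTK, BUB1 and BUB1B), beside 14.7%. With a straight line in time removed from each gene, MYBL2 alone was called, and 13.5% of all genes were.

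A limma fit of a 24 h cosine to log2(FPKM + 1) called 2 of the 10, TTK and NEK2, against 9.02% of 12253 genes. TTK had an amplitude of 0.32 ± 0.07 (SE) and a peak at 17.1 h ± 0.858 (SE) with an adjusted p = 0.0226 by limma, and NEK2 had 0.33 ± 0.08 and a peak at 16.7 h ± 0.948 with an adjusted p = 0.0357 by limma. With 16 h and 18 h left out, TTK and MYBL2 were called, beside 16.4% of all genes. Leaving out 4 h or 6 h alone ended the call for TTK, and leaving out 2 h, 4 h, 6 h, 8 h, 10 h, 16 h or 18 h that for NEK2.

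The fitted peaks are given for the other genes as a description, since their waves were not called. FOXM1 peaked at 9.04 h ± 1.48 and MYBL2 at 9.39 h ± 1.22. AURKB came later, at 13.9 h ± 1.31, followed by CDK1 at 15.6 h ± 1.14 and BUB1B at 15.7 h ± 1.11. PLK1 and AURKA both peaked at 16.8 h (± 1.51 and ± 1.19), and BUB1 at 18.3 h ± 1.13. When 16 h and 18 h were left out, FOXM1 peaked at 8.32 h ± 1.25, MYBL2 at 8.51 h ± 0.953, AURKB at 14.5 h ± 1.15, CDK1 at 15.2 h ± 1.31 and BUB1 at 18.6 h ± 1.40. In these fits of 1 wave to both days the 2 transcription factors had the earliest peaks, 6 h or more before CDK1. The peaks from CDK1 to BUB1 differed between neighbours by less than the sum of their SEs. With a separate wave for each day, described next, first-day peaks were 10.4 h for MYBL2, 12.2 h for FOXM1 and 15.5 h for CDK1.

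For 5 of the 10 genes the 24 h wave differed between the days. In a limma fit with separate cosines for the 2 days, its change was called for PLK1, AURKA, NEK2, TTK and BUB1, against 5.10% of 12253 genes. All 5 had the higher amplitude on the first day, a direction with a call in 4.77% of genes. PLK1 had 0.92 on the first day and 0.33 on the second (SE 0.14 for each, adjusted p = 0.00834 by limma), and NEK2 had 0.63 and 0.08 (SE 0.08, adjusted p = 0.0117 by limma). AURKA had 0.68 and 0.18 (SE 0.10, adjusted p = 0.0191 by limma).

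For the 2 checkpoint kinases called, TTK had 0.57 and 0.09 (SE 0.07, adjusted p = 0.0207 by limma) and BUB1 had 0.52 and 0.11 (SE 0.08, adjusted p = 0.0235 by limma). BUB1B had 0.54 and 0.14 (SE 0.10) with an adjusted p = 0.0574 by limma. Median amplitudes were 0.53 and 0.13 for the 10 genes and 0.22 and 0.10 for all genes, and 9 of the 10 genes had the higher first-day value, as did 79.9% of all genes. FOXM1 had 0.21 and 0.22. All 5 calls held with any 1 library left out.

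Without 16 h and 18 h, 4 of the 5 remained, beside 4.15% of all genes. For TTK the adjusted p was 0.0545 by limma, and the first-day amplitude of PLK1 was 0.63 ± 0.13. Without 16 h, 18 h, 40 h and 42 h, the same hours of both days, none of the 10 was called, with adjusted limma p-values from 0.058 for PLK1 upward, and 1.13% of all genes were. The amplitudes in that fit were 0.63 and 0.32 for PLK1, 0.50 and 0.10 for NEK2, 0.66 and 0.19 for AURKA, 0.42 and 0.15 for TTK and 0.45 and 0.12 for BUB1.

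**Figure D4:**
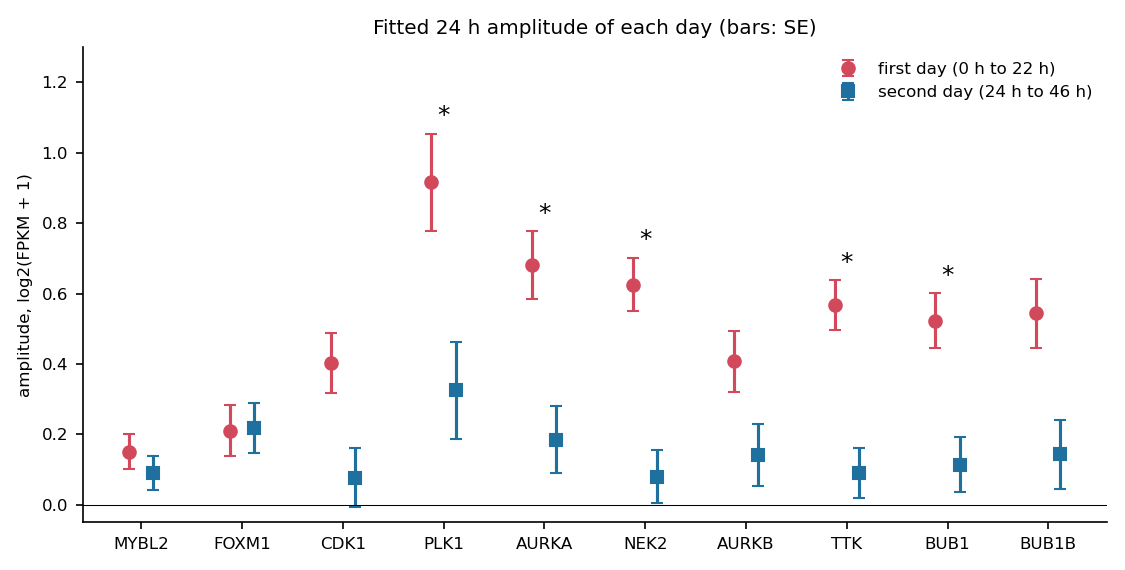
Fitted 24 h amplitude on the log2(FPKM + 1) scale (vertical axis) of each gene (horizontal axis) on the first day (circles) and the second day (squares), with SE bars and a star where the change of the wave passed an adjusted limma p of 0.05. PLK1 falls from 0.92 to 0.33, the 5 starred genes have second-day amplitudes of 0.08 to 0.33, and FOXM1 has nearly the same amplitude on both days.

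The level of 1 of the 10 genes rose from the first day to the second in a limma fit with a common wave, against 12.8% of genes called higher. That gene was AURKB, with a mean of 35.0 FPKM on the first day and 43.9 on the second, a difference of 0.35 ± 0.10 (log2, SE) and an adjusted p = 0.0126 by limma. Its difference was between 0.23 and 0.40 over the alternatives, pairing of hours 24 h apart among them, and was called in each of them and with any 1 library left out. AURKA had a slightly larger difference, 0.36 ± 0.14, with an adjusted p = 0.0663 by limma. With 16 h and 18 h left out, CDK1, AURKA and TTK were called along with AURKB, and 29.3% of all genes were called in either direction, against 21.4% with them. Without the first 3 time points of each day, AURKB alone was called (0.23 ± 0.07), beside 20.6% of all genes in either direction. The differences were then 0.06 ± 0.06 for CDK1, 0.20 ± 0.14 for AURKA and 0.01 ± 0.12 for TTK. Markers also differed between the days: LYZ (0.83 ± 0.08, adjusted p = 6.25e-07 by limma) and COL1A2 (0.35 ± 0.07, adjusted p = 0.00104 by limma), the 2 of the 9 fibroblast and monocyte markers in the table, were higher on the second day. Of the 10 erythroid and K562 markers, 1 was called, ALAS2, which was lower (−0.60 ± 0.06, adjusted p = 4.39e-07 by limma). The part of these in the difference of AURKB was not tested.

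At 16 h and 18 h the genes did not all depart alike. The mean distance of these libraries from a line drawn from 14 h to 20 h was 1.14 (log2) for PLK1 and 0.66 for TTK, the only 2 of the 10 above their flanks by 1.5-fold, against 23.9% of all genes. NEK2 (0.57), BUB1 (0.50), BUB1B (0.47), AURKA (0.28) and CDK1 (0.27) were above by less. AURKB was below, by −0.27. Of the 10 genes, 6 (CDK1, PLK1, NEK2, TTK, BUB1 and BUB1B) exceeded their own range over 16 other consecutive pairs of time points, as did 43.6% of all genes. With upper-quartile scaling 4 of them did (PLK1, NEK2, TTK and BUB1) and with median centring 6, set against the same unscaled ranges, and with the former CDK1 was at 0.04 and BUB1B at 0.24.

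The median distance was 0.38 for the 10 genes and 0.14 for all genes. After scaling each library to its upper quartile the medians were 0.14 and −0.06, and after median centring 0.26 and 0.02, so that the sign for all genes depends on the scaling. PLK1 was at 0.91 and 1.03 under these scalings, and TTK at 0.43 and 0.55, below 1.5-fold, so that 1 gene of the 10, PLK1, was left above that limit. AURKB stayed below, at −0.50 and −0.39. MYBL2 (0.14) and FOXM1 (0.10) turned to −0.09 and −0.13 with upper-quartile scaling, and FOXM1 to −0.02 with centring. The part of the altered libraries in these values was not tested.

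**Figure D5:**
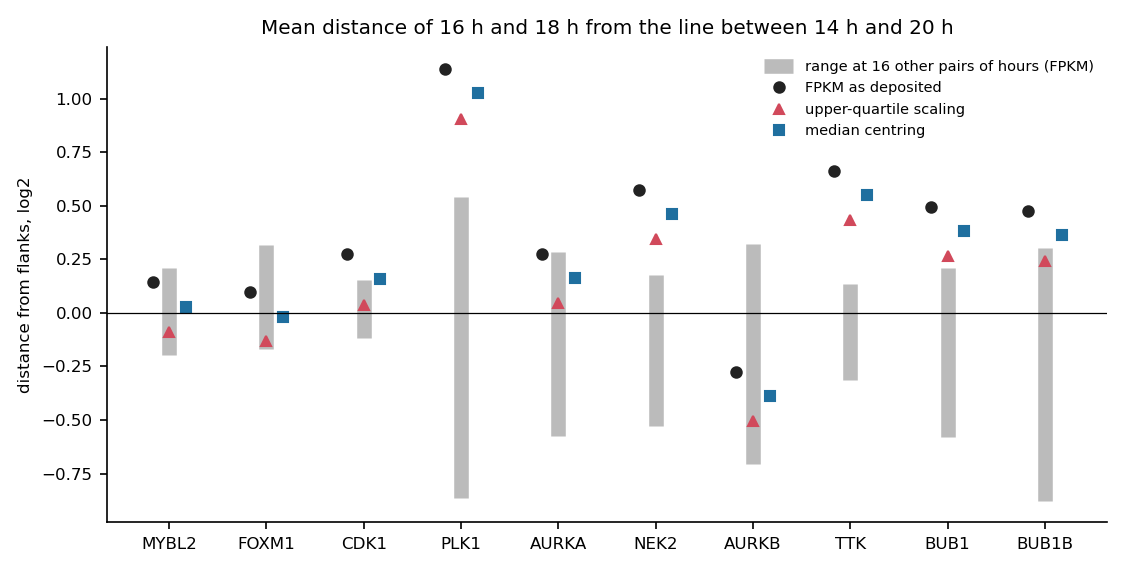
Mean distance (log2) of the 16 h and 18 h libraries from a line drawn from 14 h to 20 h (vertical axis) for each gene (horizontal axis), as deposited and under 2 scalings, with a grey bar for the range of the same measure at 16 other pairs of time points. PLK1 is farthest above at 1.14, AURKB lies below 0 under each scaling, and MYBL2 and FOXM1 lie near 0.

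At 32 h, the milder irregular library, 5 of the 10 genes lay at least 0.2 (log2) above the mean of 30 h and 34 h, against 26.3% of all genes. These were PLK1 (0.73), BUB1B (0.31), FOXM1 (0.28), MYBL2 (0.22) and NEK2 (0.20). CDK1 lay below, by −0.12. With upper-quartile scaling PLK1 was at 0.66, BUB1B at 0.24 and FOXM1 at 0.21, and MYBL2 (0.15) and NEK2 (0.13) were under 0.2. At 6 h, the first high point of the transcription factors, MYBL2 lay 0.25 and FOXM1 0.31 above their neighbours, and PLK1 0.58 and AURKB 0.37. Summed FPKM was 510972 at 6 h and 505466 at 32 h, both within the range of the other libraries.

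The genes resembled each other to different degrees. Over the 24 time points, which come from 1 culture and share library effects, Pearson's r of the 45 pairs ran from −0.25 (MYBL2 with BUB1) to 0.98 (NEK2 with TTK), with a median of 0.56. The 15 pairs among PLK1, AURKA, NEK2, TTK, BUB1 and BUB1B, a set named after the values had been seen, had r from 0.69 to 0.98 with a median of 0.86, or 0.80 without 16 h and 18 h. MYBL2 and FOXM1 had r = 0.77 with each other. AURKB stood between over all time points, with r = 0.42 with NEK2, 0.37 with TTK and 0.56 with BUB1B. Without 16 h and 18 h these were 0.83, 0.81 and 0.85. Its r with AURKA, PLK1 and BUB1 was then 0.71, 0.62 and 0.45.

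Among 7159 other genes that averaged 10 FPKM or more, those nearest to the mean Z-score profile of the 10 were HJURP, which loads the centromeric histone (r = 0.93), TOP2A, the topoisomerase that untangles chromosomes (0.93), CKAP2L and KNSTRN, both of the spindle (0.93 each), TRIM14 (0.92), TPX2 (0.92), FKBP5, a co-chaperone (0.92), CDCA2, a phosphatase subunit of chromosomes (0.91), and the mitotic kinesins KIF14 and KIF23 (0.91 each), over 24 time points. When 16 h and 18 h were left out, 5 of these were still among the nearest 10. By single gene, NEK2 and TTK were nearest to each other, and NEK2 was nearest to BUB1B. PLK1 was nearest to RNF26 (r = 0.97), AURKA to KIF20A, a mitotic kinesin (0.94), BUB1 to DLGAP5, a spindle protein (0.94), AURKB to CDCA3 (0.89), MYBL2 to TRIR (0.93), FOXM1 to TRMT1 (0.92) and CDK1 to SCG3 (0.90). When 16 h and 18 h were left out, the nearest gene was another for 6 of the 10: KIF23 for CDK1, TRG-AS1 for AURKB, EIF2B1 for FOXM1, KNSTRN for AURKA and NEK2, and TPX2 for BUB1B.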

How the data were processed

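RNA sequencing of 24 K562 samples, 1 per time point, was analysed, with table columns assigned by the hour in the labels. The authors deposited FPKM values, made per the submitters' processing notes with STAR, Cufflinks and Cuffnorm on GRCh37 (versions, annotation and strandedness are not given in the sources used here), and a cleaned score per gene (Z-scored, then quantile normalized), used only as an alternative. Every gene had at least 1 FPKM in 12 or more time points. Low FPKM values did not step by whole reads (no more than 1.12% of low genes shared a ratio between neighbouring libraries within 0.1%), so depth and counting error are unknown and count models were not used.

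The JTK statistic was computed on FPKM (Python 3.11.15, numpy 2.4.6, pandas 2.3.3), and limma 3.58.1 (R 4.3.3) on log2(FPKM + 1) of genes averaging 1 FPKM or more, both Benjamini–Hochberg adjusted over all genes tested and checked on simulated data. The limma p-values measure the scatter of libraries around a fitted course within 1 series. Those of JTK come from reordering the time points, which are not independent within 1 culture, and slow drift also lowers them. Fold changes on the log2(FPKM + 1) scale understate those of low genes. Besides the 10 genes, those named were the 10 nearest to their mean profile, the nearest to each, and the largest and smallest amplitude of each pathway list. CCNB1 and E2F5 were named after their values were seen. The genes, lists and measures were chosen with earlier results of these data known. Alternatives were other periods, scalings, pseudocounts, filters, a line in time and left-out libraries. Leaving out each library in turn, the irregular libraries with 6 h, or the first hours of each day, and the period of 16 h, and pairing hours 24 h apart were added after seeing the data. Of 12285 identifiers, 12123 matched a table of gene names. Promoter windows came from RefSeq (GRCh38.p14), a build other than that of the deposited values. 1 further marker list is not reported here.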

Additional observations from a re-analysis of the deposited data

Results flagged for a closer look

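PLK1, AURKA, NEK2, TTK and BUB1 differed between the days of the series, with a change of the 24 h wave that passed the test of the difference itself (limma, Benjamini–Hochberg adjusted over 12253 genes). The adjusted limma p-values were 0.00834 for PLK1, 0.0117 for NEK2, 0.0191 for AURKA, 0.0207 for TTK and 0.0235 for BUB1, and all 5 had the larger amplitude on the first day. The call for TTK was lost without 16 h and 18 h, and those for all 5 without 16 h, 18 h, 40 h and 42 h, where the first-day amplitude was 0.42 to 0.66 and the second-day amplitude 0.10 to 0.32. Single libraries were not examined as outliers, since each time point has 1.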

How the results depend on the processing

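With 1 library per time point, no replicate error can be given, and in the limma fits scatter around a fitted course stands in for it. No paired analysis by replicate number was possible because each time point has 1 library. Pairing the 12 hours of the first day with those 24 h later left the call for the second day at AURKB alone (0.35 ± 0.09, adjusted p = 0.0225 by limma). Of all genes, 14.7% were then called in either direction. Of the 10 genes, 3 were called by JTK at 24 h, beside 11.9% of all genes. The count was 1 at a period of 20 h (3.22% of all genes), 0 at 28 h (3.64%) and 0 at 16 h (0%). It was 1 without 6 h, 16 h, 18 h and 32 h (8.64%) and 1 with a line removed (13.5%). With upper-quartile scaling it was 6 (13.5%), and with median centring 6 (13.3%). With adjustment over genes of at least 10 FPKM only, where fewer genes are tested, it was 5 (16.2% of those). With 1 library left out it ran from 0 to 6, and the share of all genes from 7.63% to 14.7%. For the cosine fit, 2 genes were called, beside 9.02% of all genes. The count was 0 at 20 h (0% of all genes), 28 h (0.735%) and 16 h (0%). It was 1 with a line in the model (11.6%) and 0 without 6 h, 16 h, 18 h and 32 h (10.2%). With 1 library left out it ran from 0 to 4, and the share of all genes from 3.31% to 11.1%. For the second day, 1 gene was called, beside 21.4% of all genes in either direction. The count was 4 without 16 h and 18 h (29.3%) and 3 with upper-quartile scaling (22.8%). It was 5 without 16 h, 18 h, 40 h and 42 h (26.0%). With 1 library left out it ran from 1 to 2, and the share of all genes from 18.0% to 22.8%. For the change of the wave, 5 were called (5.10% of all genes), and 0 without 16 h, 18 h, 40 h and 42 h (1.13%). With 1 library left out the count ran from 5 to 7, and the share of all genes from 1.59% to 20.7%. The median distance at 16 h and 18 h moved from 0.38 to 0.14 with upper-quartile scaling, under which MYBL2 (−0.0896) and FOXM1 (−0.13) changed sign, as did FOXM1 with centring (−0.0167). Of the 10 nearest genes, 5 remained without 16 h and 18 h and 6 with Spearman's rho. The CHR count was 4 in 300 bases and 3 in the 250 bases before the start. Where no construction shows it, the cause of a change was not tested.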

Other observations

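The S phase genes, among them the MCM helicase subunits and the cyclins E, had their high points earlier in the first day than most of the mitotic entry genes. All 15 were in the table, and 12 were highest at 2 h, 4 h or 6 h, a share that was not counted over all genes. All 15 were lower at 20 h and 22 h than at 2 h and 4 h. Of the genes averaging 1 FPKM or more, 54.2% were higher. By JTK at 24 h, 8 of the 15 were called (permutation, adjusted over all genes), beside 11.9% of all genes, and 10 of the 15 without 16 h and 18 h, beside 16.2%. UNG, which removes uracil from DNA, had the largest fitted amplitude, 0.38 ± 0.09 (SE), with a peak at 2.58 h, and SLBP, the binding protein of histone messages, the smallest, 0.05 ± 0.06. Without 16 h and 18 h they had 0.31 ± 0.08 and 0.12 ± 0.04, and neither kept its place at the end of the list.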
